A study of Rattus norvegicus with 6 samples.

Results

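Isolated strong peaks are ATAC-seq peaks with a very high count and few or no equally strong neighbours in the order of the peak numbers. They were chosen from an ATAC-seq table of 166,508 peaks, made from primary bone marrow stromal cells (BMSCs) of the rat. A peak counted as strong when its mean signal over all 6 libraries, in CPM (the peak's count scaled to the library's total count in peaks), lay in the highest 1%, which took in 1666 peaks at 27.5 CPM or more. Strong peaks were put in the order of their numbers, and a gap of more than 10 numbers to the previous strong peak began a new group. The 382 strong peaks in groups of 1 to 4 are the members described here, and the other 1284 stood in 76 runs of 5 or more. All 6 libraries came from BMSCs grown in α-MEM with 10% FBS. The 3 hypoxia libraries came from cells held at 1% oxygen for 7 days and the 3 control libraries from cells under normal culture, whose oxygen level the labels do not state. No label gives the strain, age or number of rats, or says whether the replicates were separate cultures. The p-values therefore reflect the spread among these 6 libraries alone, and that spread may be technical. The table names peaks by number, with no gene or coordinate, so no sequence, motif or promoter is described and the cell type could not be checked against marker genes. Peak widths are not given either, so counts were not scaled to width and a wide peak can rank as strong. Whether each member is a single open site was not tested.

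In ATAC-seq a transposase cuts DNA that is free of nucleosomes and leaves sequencing adapters there, so the count in a peak reflects how often that site was open in the cell population. BMSCs are the adherent marrow cells that can give rise to bone, cartilage and fat, and they live in a marrow that is itself low in oxygen. When oxygen is short, the hypoxia-inducible factors HIF-1 and HIF-2 are no longer broken down and bind enhancers and promoters, many of which are open beforehand. In many cell types the strongest single ATAC-seq sites are promoters of widely active genes and sites bound by CTCF, a protein that shapes chromatin loops. In a bulk library a site that is less open in every cell and a site that is open in fewer cells cannot be told apart.

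Members fell into 261 groups. Of the 382 members, 189 stood alone and 193 stood in 72 groups of 2 to 4. Their mean signal ran from 27.5 to 1087 CPM, with a median of 37.7 CPM and the middle 50% of members between 31.8 and 56.1 CPM, against a median of 4.54 CPM over all peaks. These levels chose the members and are given as a description. Strong peaks in runs had a median of 44.9 CPM and reached 4374 CPM. The members closest to the threshold were A_75872 at 27.549 CPM and A_10 at 27.602 CPM, and the peaks just below it were A_75889 at 27.536 CPM and A_28756 at 27.533 CPM.

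Most members were strong in each single library. The mean of these same libraries chose them, so high shares are partly set by the rule and are given as a description. In single libraries, 81.4% to 88.0% of the members lay within that library's own strongest 1%, against 88.5% to 92.8% of the run peaks. In all 6 libraries at once this held for 211 of 382 members (55.2%) and for 933 of 1284 run peaks (72.7%), which also had the higher levels. A further 49 members were within the strongest 1% of 3 or fewer libraries.

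The 3 strongest members each stood alone in the numbering. A_164677 had 1253, 1111 and 1101 CPM in control 1, 2 and 3 and 1023, 1003 and 1031 CPM in hypoxia 1, 2 and 3. Every hypoxia value of this peak lay below every control value. A_161401 had 680, 640 and 637 CPM in the control libraries and 671, 733 and 643 CPM in the hypoxia libraries, and its groups overlapped. A_1773 had 644, 612 and 638 CPM in the control libraries and 570, 571 and 608 CPM in the hypoxia libraries, with the groups apart but only just. A_164677 alone held 0.107% of all counts, from 1894 counts in control 2 to 3718 in hypoxia 1. Its log2 fold change of hypoxia over control was -0.18 (SE 0.08), or 1.13-fold, and it did not pass the threshold in edgeR's quasi-likelihood test (adjusted p = 0.832 by Benjamini-Hochberg). It was the 1 member that limma-voom called, at an adjusted p of 0.00144. For A_161401 the log2 fold change was 0.07 (SE 0.09), and for A_1773 it was -0.11 (SE 0.09).

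The surroundings of the members differed with how they were grouped. Peaks directly next to a member standing alone that were not strong themselves had a median of 5.57 CPM, close to the level of the whole table. Next to members in groups of 2 to 4 this median was 14.6 CPM, and next to peaks in runs 19.5 CPM. At a distance of 10 numbers the medians were 5.22, 6.74 and 11.9 CPM, and at 50 numbers 5.10, 5.45 and 6.46 CPM. Members standing alone were thus single high peaks among ordinary ones, while members in groups sat on a slope of raised peaks that levelled off over about 20 numbers. The rule sets no level for the peaks below the threshold. It does choose members standing alone for having no strong peak within 10 numbers, and the others for having some. Part of these differences may therefore follow from the grouping. These medians were not tested.

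**Figure D1:**
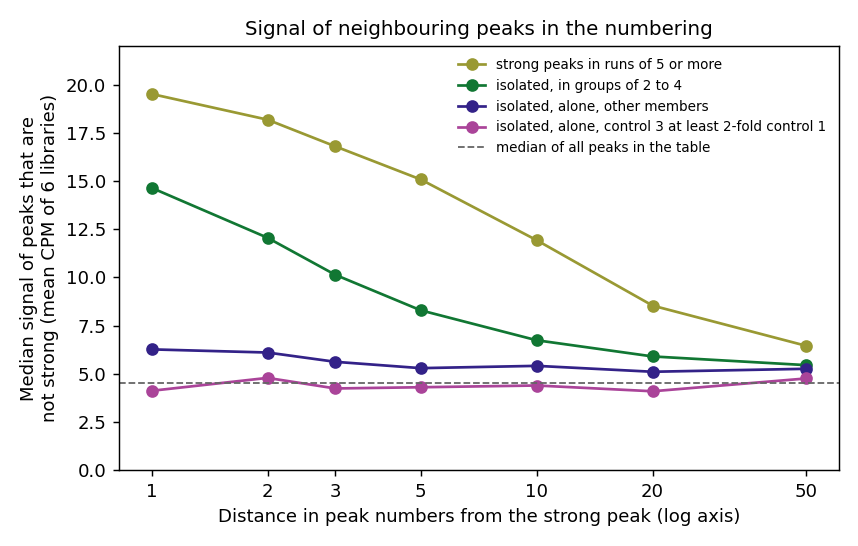
Median signal (CPM, mean of 6 libraries) of peaks that are not strong, by their distance in peak numbers from a strong peak (log axis), for 4 sets of strong peaks; the dashed line is the median of all peaks, 4.54 CPM. Next to a strong peak the medians are 19.5 CPM in runs and 14.6 CPM in groups of 2 to 4, while both sets of members standing alone stay near the dashed line.

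Within the 72 groups the strongest member had a median of 1.34 times the signal of the weakest, and at most 6.32 times. There were 121 pairs of neighbouring members, of which 64 had consecutive numbers. Across these pairs the log2 levels correlated (Pearson r = 0.543), whereas the log2 fold changes of hypoxia over control hardly did (r = 0.050). Pairs share libraries, and some share a member, so these values are descriptions. In 69 pairs both members had a fold change on the same side of 0, with 57 pairs both lower and 12 both higher in hypoxia. Of all members in these groups, 69.9% had a fitted log2 fold change below 0. Unrelated members would therefore also give more pairs both lower than both higher. The pair counts alone do not show that neighbours changed together.

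No member passed the threshold between hypoxia and control. All 382 members passed the filter on low counts and were tested by edgeR among the 118,069 peaks of the table that passed it. Of all tested peaks 0.000847% were called at an adjusted p under 0.05, and the count of members called was 0. The lowest adjusted p was 0.275. DESeq2 called 0 members as well, and limma-voom 1. At an unadjusted p under 0.05 there were 48 members (12.6%), against 5.61% of all tested peaks. In DESeq2 36 members met this and in limma-voom 53, where the share over all tested peaks was not taken. The rule used the mean over both groups and not their difference. Control libraries varied more, with a median coefficient of variation of 17.6% over the members, against 11.0% in hypoxia. A high mean can therefore favour peaks that were high in control, so the choice was not free of this contrast. Run peaks were chosen by the same mean, and how far this shaped the counts was not tested. Precision also differs: the log2 fold change of a typical member had a standard error of 0.20, and that of a typical tested peak 0.51. The shares at an unadjusted p under 0.05 therefore do not rank members and tested peaks by how often they differed. Among the strong peaks in runs, with a median standard error of 0.18, 154 of 1284 (12.0%) had a p under 0.05.

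Of the 48 members, 41 were lower in hypoxia (10.7% of the members, against 2.51% of all tested peaks) and 7 were higher (1.83%, against 3.1%). The run peaks had 101 lower (7.87%) and 53 higher (4.13%). The median log2 fold change of the members was -0.09, as in the run peaks, against 0.00 over all tested peaks. A fitted value below 0 was found for 263 members (68.8%), for 68.2% of the run peaks and for 49.9% of all tested peaks. In 42 members (11.0%) all hypoxia libraries lay below all control libraries, against 5.67% of all tested peaks, and in 13 (3.40%) they lay above, against 5.87%. Changes were small: 369 members (96.6%) had a fitted log2 fold change within 0.5 of 0, none of the 382 (0) went beyond 2-fold, and the 95% half-width of a typical member was 0.39 on the log2 scale.

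The split between higher and lower moved with loess offsets and with single libraries, but hardly with the other scalings. With DESeq2 size factors the split was 6 higher and 41 lower (median log2 fold change -0.09). With scaling to total counts only it was 7 and 39 (-0.08). With loess offsets by mean signal it was 13 higher and 22 lower, with a median of -0.021. These offsets level out shifts that vary with mean signal, by which the members were chosen. The move of the median towards 0 is therefore partly set by the method. Without control 3 it was 18 and 22 (median -0.051), without control 2 it was 4 and 61 (-0.16), and without hypoxia 1 it was 7 and 19 (-0.06). Hypoxia libraries held 3,061,636 to 3,634,436 counts and control libraries 1,704,504 to 1,964,045, so depth and group cannot be told apart in the design. With hypoxia libraries thinned to control depth the split was 6 and 37 and the median -0.12. With strength judged by the control libraries alone it was 6 and 48 (median -0.12), and by the hypoxia libraries alone 15 and 30 (-0.05). Judging strength in only the control or only the hypoxia libraries favours peaks high there, so this shift is partly set by the choice. For the refits with other scalings or libraries, the share over all tested peaks was not taken.

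**Figure D2:**
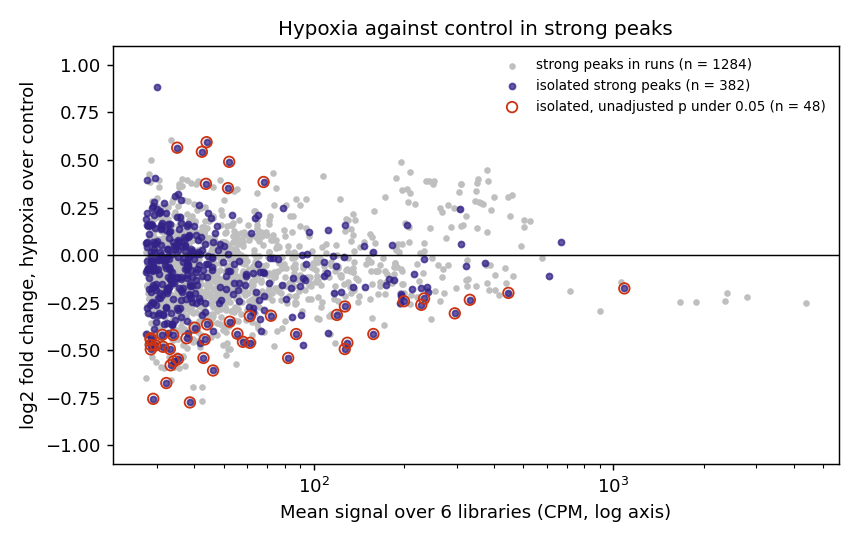
Fitted log2 fold change of hypoxia over control (edgeR) against mean signal (CPM, log axis) for the 382 isolated strong peaks (dark points) and the 1284 strong peaks in runs (grey); red rings mark the 48 members with an unadjusted p under 0.05. Rings lie below 0 for 41 members and above 0 for 7, and none of the 382 passed the adjusted threshold.

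The members with the smallest p in each direction are given with their values, although none of them was called. A_91881 stood alone and had 38.7, 55.1 and 52.7 CPM in control 1, 2 and 3, against 27.5, 32.5 and 25.2 CPM in hypoxia 1, 2 and 3. Every hypoxia value lay below the lowest control value. Hypoxia averaged 28.4 ± 3.76 CPM and control 48.8 ± 8.87 CPM (SD, n = 3 each), a log2 fold change of -0.77 (SE 0.19; edgeR adjusted p = 0.275). A_63060, also alone, had 79.4, 101 and 112 CPM in control and 59.4, 74.7 and 66.3 CPM in hypoxia. Its groups were again apart, with a log2 fold change of -0.54 (SE 0.15; edgeR adjusted p = 0.376).

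On the higher side, A_48189 had 24.4, 35.2 and 43.9 CPM in control and 50.1, 49.4 and 51.0 CPM in hypoxia. The hypoxia libraries lay close together and above a wide control range, and the log2 fold change was 0.54 (SE 0.19; edgeR adjusted p = 0.660). A_125767 had 42.3, 38.1 and 24.8 CPM in control and 45.1, 65.0 and 48.0 CPM in hypoxia, with a log2 fold change of 0.59 (SE 0.19; edgeR adjusted p = 0.571). Its lowest hypoxia value was just above its highest control value.

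**Figure D3:**
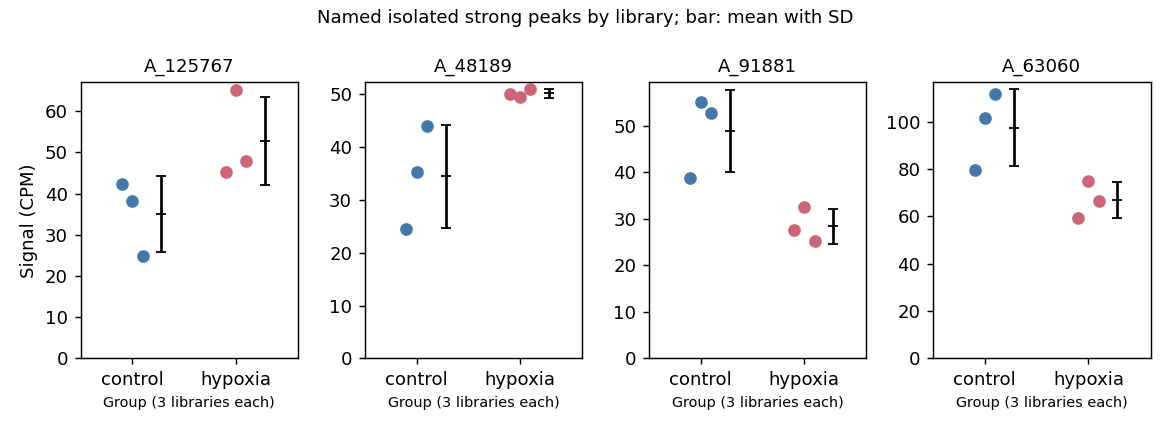
Signal in CPM of A_125767, A_48189, A_91881 and A_63060 in each library, with control in blue and hypoxia in red; the black bar is the mean with its SD (n = 3). In all 4 peaks the groups do not overlap, and the narrowest gap is in A_125767, between 42.3 CPM in control 1 and 45.1 CPM in hypoxia 1.

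A_125767 belonged to a group of 3 members with consecutive numbers in which signal was shared out differently. The first member, 2 numbers before it, had 67.2, 49.9 and 50.1 CPM in control and 32.2, 36.9 and 40.5 CPM in hypoxia, a log2 fold change of -0.61 (SE 0.18; edgeR adjusted p = 0.482). The member between them had 32.6, 41.1 and 26.3 CPM in control and 38.2, 39.1 and 26.8 CPM in hypoxia, with a log2 fold change of 0.07 (SE 0.21). The outer members therefore had fold changes of similar size and opposite sign, each with separated groups, around a middle member whose groups overlapped. Summed over the 3 members, hypoxia had 124 ± 14.8 CPM and control 124 ± 20.9 CPM (SD, n = 3 each). A_125767 held 39.0%, 46.1% and 41.6% of that sum in hypoxia 1, 2 and 3, and 29.7%, 29.5% and 24.5% in control 1, 2 and 3. This group was singled out after its values were seen, and the shift within it was not tested.

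The spread between libraries of 1 group was wider in control than in hypoxia. For a typical member the coefficient of variation was 17.6% among the control libraries and 11.0% among the deeper hypoxia libraries, and in the run peaks it was 14.3% and 10.1%. The steadiest member over all 6 libraries was A_3191, with a coefficient of variation of 3.74% and values from 29.4 to 32.5 CPM. The least steady was A_66430, at 70.6%. It had 29.5, 15.3 and 18.6 CPM in control and 71.8, 25.6 and 18.9 CPM in hypoxia, so hypoxia 1 alone stood far above the rest. A_66430 also had the highest fitted log2 fold change of any member, 0.89 (SE 0.63; edgeR adjusted p = 0.976). Without hypoxia 3 this peak passed, at a log2 fold change of 1.23 and an adjusted p of 0.0196 by edgeR.

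A set of members differed more between control libraries than any run peak did in the same direction. In 35 of the 382 members (9.16%) the CPM of control 3 was at least 2-fold that of control 1, and in 0 of 1284 run peaks; the reverse was found in 2 members and 9 run peaks. Of the 2704 peaks with a mean of 15 CPM or more that fell short of the strong threshold, 88 (3.25%) met the same ratio, at lower counts. The highest ratio among the members was 3.66. The 35 members had a mean signal of 32.2 to 196 CPM, so they were not confined to the threshold. Of them 32 stood alone, which is 16.9% of the 189 members standing alone, and 3 stood in groups. The peaks next to those 32 had a median of 4.12 CPM, against 6.27 CPM next to the other members standing alone. The ratio was chosen after the values were seen, so these counts are descriptions with no test.

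In the hypoxia libraries, which did not define the set, its members also shared an order. Hypoxia 2 was the highest of the 3 hypoxia libraries in 31 of 35 members (88.6%), against 95 of the other 347 members (27.4%) and 271 of 1284 run peaks (21.1%). The median log2 ratio of hypoxia 2 to hypoxia 1 was 0.47 in the set and 0.00 in the other members, and that of hypoxia 2 to hypoxia 3 was 0.33 and -0.06. Relative to each peak's own mean on the log2 scale, the median of the set was -0.55, -0.10 and 0.90 in control 1, 2 and 3 and -0.24, 0.20 and -0.15 in hypoxia 1, 2 and 3.

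The 3 strongest members of the set, A_136395, A_113194 and A_91278, are named because their values nearly coincided, which was seen before they were chosen. A_136395 had 108, 160 and 365 CPM in control 1, 2 and 3 and 157, 221 and 166 CPM in hypoxia 1, 2 and 3. A_113194 had 121, 156 and 351 CPM in control and 146, 244 and 154 CPM in hypoxia. A_91278 had 100.3, 177 and 357 CPM in control and 156, 232 and 144 CPM in hypoxia. All 3 had control 1 lowest, control 3 highest and hypoxia 2 above the other hypoxia libraries, at mean levels of 196.1, 195.5 and 194.3 CPM. They stood alone and far apart in the numbering. Their log2 fold changes of hypoxia over control were -0.22 (SE 0.52), -0.20 (SE 0.51) and -0.25 (SE 0.54), where a typical member had a standard error of 0.20.

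**Figure D4:**
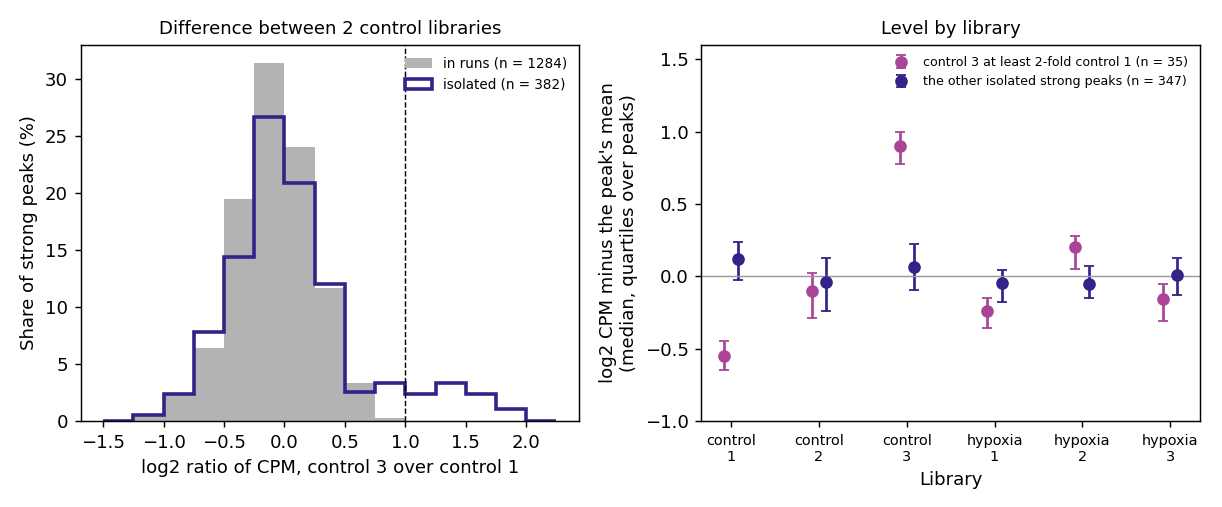
Left, share of strong peaks (%) by the log2 ratio of CPM in control 3 to control 1, for isolated strong peaks (line) and those in runs (grey), with a dashed line at 2-fold; right, log2 CPM minus each peak's own mean by library (points, median; bars, quartiles over peaks) for the 35 members beyond 2-fold and the other 347. Beyond the dashed line lie 35 members and 0 run peaks, and the set is highest in control 3 and, among the hypoxia libraries, in hypoxia 2.

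Between hypoxia and control the median log2 fold change of the set was -0.32 (median standard error 0.32). Of its 35 members 31 had a fitted value below 0, 4 had an unadjusted p under 0.05 (all lower), and 0 had groups that did not overlap. As control 3 was high and control 1 low in the set by its choice, the control range was wide, and these values lean on those libraries. Among the other 347 members, 7 were higher and 37 lower at an unadjusted p under 0.05, and the median log2 fold change was -0.07. The lower majority among the members is therefore nearly as large without the set.

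The set also set control 1 and control 3 apart as libraries. Across the 382 members, the Pearson correlation of log2 CPM between control 1 and control 3 was 0.834, the lowest of the 15 library pairs, and it was 0.922 across the other 347 members, from which the differing peaks are removed by construction. Across the members, pairs of control libraries correlated at 0.834 to 0.907, pairs of hypoxia libraries at 0.939 to 0.951 and mixed pairs at 0.886 to 0.933. Across run peaks these ranges were 0.939 to 0.954, 0.970 to 0.975 and 0.950 to 0.960. All are over peaks of the same libraries, and the hypoxia libraries were deeper.

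Summed over the 382 members, the share of all counts was 2.52%, 2.36% and 2.78% in control 1, 2 and 3 and 2.31%, 2.40% and 2.39% in hypoxia 1, 2 and 3. Control 2 fell among the hypoxia libraries, so the groups overlapped. Hypoxia averaged 2.37% ± 0.05 and control 2.55% ± 0.21 (SD, n = 3 each), a difference of -0.19 percentage points, which became -0.08 without control 3 and -0.28 without control 2. The set of 35 gave 0.439% of the counts of control 3 and 0.159% of those of control 1. Without it the share was 2.13% ± 0.04 in hypoxia and 2.28% ± 0.12 in control. Peaks in runs took 10.9% ± 0.31 in hypoxia and 11.4% ± 0.62 in control. The ratio of counts in members to counts in runs was 0.218 ± 0.008 and 0.224 ± 0.014. As sums over chosen peaks, these shares were not tested.

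**Figure D5:**
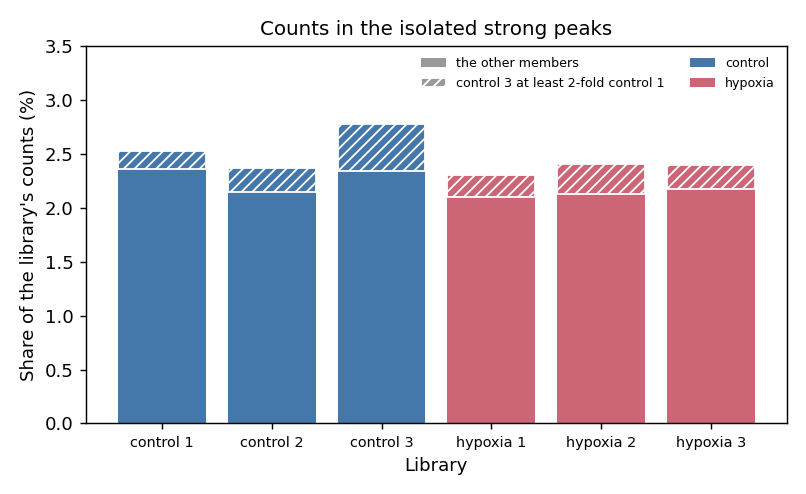
Share of each library's counts (%) in the isolated strong peaks, for 3 control libraries (blue) and 3 hypoxia libraries (red); the hatched part comes from the 35 members at least 2-fold higher in control 3 than in control 1. The highest bar is control 3 at 2.78%, and the hatched part is largest there.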

How the data were processed

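ATAC-seq libraries of about 50,000 BMSCs each were amplified for 11 PCR cycles and read as single ends of 50 bases, per the labels' protocols. The authors deposited raw counts per peak, with no normalization. Bowtie2, MACS2, deepTools, DESeq2 and the build rn6 are named in the submitters' processing notes. Not given in the sources used here are the counter, the filters, a transposase shift, the treatment of duplicates and the pooling of libraries for peak calling. Even counts outnumbered odd ones, at 53.1% to 65.4% among the members, and what a single count stands for is not stated; halved counts were therefore an alternative.

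Groups came from titles, columns from library names. CPM is the count over the column total scaled to counts per 1000000. edgeR 4.0.16 in R 4.3.3 was fitted to the whole table, with TMM scaling, the default filter (minimum count 10, minimum total 15), robust dispersions and a two-sided quasi-likelihood test. The Benjamini-Hochberg adjustment ran over all 118,069 peaks tested, and standard errors are the fold change over the root of F. Correlations and levels relative to a peak's mean used log2(CPM + 0.5). A chi-square between libraries gave 2.18 to 2.48 per peak over 15 pairs, so none looked like a repeated deposit. The procedure was tested on simulated data, in which 98,875 peaks passed the filter. There edgeR called 20.9% of 1.5-fold, 52.2% of 2-fold and 100% of 4-fold changes placed in isolated strong peaks. It also called 4 unchanged peaks. These changes, 67, 67 and 66 of them, were present at once, which loosens the adjusted threshold. The real data gave 1 call among 118,069 peaks, so the rates for smaller changes may be too high for them.

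The members, the rule for naming peaks and the alternatives were chosen with earlier results of these data known. Named were up to 2 members per direction by smallest p, the 3 strongest, those nearest the threshold and those with the smallest and largest coefficient of variation. The 2-fold set and strength judged within 1 group were added after seeing the data. Alternatives were other scalings and filters, DESeq2 1.42.0, limma 3.58.1 with voom, the replicate number as a block, leaving out each library, halved and thinned counts, and other gaps, strengths and group sizes. Intervals do not cover PCR duplicates.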

Additional observations from a re-analysis of the deposited data

How the results depend on the processing

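Against 0 members called, 1 was called by limma-voom and 0 to 1 when leaving out 1 library; the other settings, an adjusted p under 0.1 included, called 0. Against 48 members at an unadjusted p under 0.05 (7 higher, 41 lower), loess offsets gave 13 higher and 22 lower (median log2 fold change -0.021), and at least 50 counts in 3 libraries gave 30 members, 20 of them lower. Leaving out 1 library gave 26 to 65 (4 to 18 higher, 19 to 61 lower), with medians from -0.16 to -0.051. The strongest 2% held 780 members and 100 such peaks (37 higher, 63 lower), and peaks standing alone 30 (25 lower) of 189. The number of members there also differs from the main rule, so these counts do not compare directly. With strength judged by the hypoxia libraries 15 were higher, which that choice itself favours. Loess offsets level out shifts that vary with mean signal, by which the members were chosen, so their result is also partly set by the method. The share over all tested peaks was taken in the main fit only, and the cause of these changes was not tested. The difference in the share of counts stayed between -0.28 and -0.08 percentage points when leaving out 1 library. A_125767, A_48189, A_91881 and A_63060 kept their direction in all 17 refits and passed in 0, with adjusted p from 0.0555 to 1.00.

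Over all tested peaks, deviations of same-numbered libraries correlated at -0.016, 0.013 and 0.015. Across the members they correlated at 0.285, 0.126 and -0.058, and those of other-numbered libraries at -0.427 to 0.299. No label says that a number marks a shared animal or day, so whether the numbers pair the samples is not known. With the replicate block 0 members were called and 46 had an unadjusted p under 0.05 (9 higher, 37 lower). With the block and loess offsets these were 0 and 34 (15 higher, 19 lower), with a median of -0.018.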

Other observations

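Members were spread over the whole range of peak numbers. In 17 bins of 10,000 numbers there were 7 to 47 members and 0 to 216 run peaks. Run peaks are clumped by the rule and outnumber the members, so the ranges do not compare directly. Of the 382 members, 82 (21.5%) lay within 50 numbers of a run peak, and the median distance to the nearest one was 389 numbers. Among the 35 members at least 2-fold higher in control 3 than in control 1, 1 lay within 50 numbers of a run peak. Of these 35 members 32 stood alone, and among all 189 members standing alone 23 lay that close.

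Numbers run up to 169,607, and 3099 of them (1.83%) are not among the peaks analysed here. Of the 764 numbers directly next to a member, 57 (7.46%) were missing, as were 226 of the 2568 next to run peaks (8.80%). Beside members standing alone it was 6.08%, and beside members in groups 8.81%. These shares were seen in the data first and were not tested.

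Even counts made up 53.1% to 65.4% of the members' counts in a library and 50.6% to 54.4% of those of run peaks, with the 3 control libraries above the 3 hypoxia libraries among the members.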
